A study of Homo sapiens with 4 samples.

Results

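The line 6T-CEM was established from T-ALL (T-cell acute lymphoblastic leukaemia) and is of human origin. In it, 3931 genomic regions had a RUNX1 peak and no called ETS1 peak and lay between genes but close to them. They were chosen from peak lists of CUT&Tag, an assay in which an antibody tethers a transposase to chromatin so that the bound DNA is cut out and sequenced. Peaks of both RUNX1 libraries on chromosomes 1 to 22 and X were merged where they touched, and a region with a peak of each library was kept, which left 22802 regions. Members overlapped no peak of either ETS1 library. Their midpoint lay outside coding genes, more than 1 kb and at most 100 kb from the nearest coding gene end, and more than 1 kb from the end of any long non-coding RNA (lncRNA) gene. They were 17.2% (95% Wilson interval 16.8% to 17.7%) of the RUNX1 regions, and 85.4% of the 4601 RUNX1 regions at this location. Because the peak calls chose the members, their RUNX1 signal and their lack of an ETS1 peak are described without a test.

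The series held 4 libraries, 2 with an antibody against ETS1 and 2 with an antibody against RUNX1, all from the same cell line, and the labels give no treatment or genetic change for any of them. The ETS1 libraries had 6082 and 5625 peaks and the RUNX1 libraries 25360 and 25001, each called against an IgG control. The labels do not give the source of replicates 1 and 2 (separate cultures or the same one), so the spread between them may be technical. RUNX1 occupied an end of 6 of 7 T-cell marker genes and of 3 of 12 non-blood marker genes, where 46.9% of all coding genes had RUNX1 at an end. It did so at 4 of 10 B-lineage, 2 of 11 myeloid and 4 of 10 erythroid and megakaryocytic marker genes. This is occupancy and not expression, which was not measured.

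RUNX1 binds DNA together with its partner CBFB, at short motifs whose core reads TGTGGT or TGCGGT, and controls the formation of blood stem cells and several steps of T-cell development. Much of its binding lies away from promoters, at enhancers, which can act on genes over a distance and need not act on the nearest one. ETS1 is a factor of the ETS family that can bind beside RUNX1 on composite sites, as in the enhancer of the T-cell receptor alpha chain. The nearest coding gene is therefore used below as an address and not as a target.

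A few members reached into the window from 250 bases before to 50 bases after a transcript start, for which RefSeq (GRCh38.p14, the assembly of hg38) gives the sequence. The rule measures from the region's midpoint to the outermost gene ends. Such a start can therefore lie within a gene, as in the OIP5-AS1 window, or at a gene end that a wide region reaches. There were 22 such windows, touched by 19 members. Of these windows, 18 belonged to lncRNA genes and 4 to coding genes. In 2 windows the summits of both libraries lay inside, and both windows held TGCGGT, a match that 7.29% of the 35116 windows in the table had. The 2 motifs, searched on either strand, went opposite ways. TGCGGT was in 15.2% of the 4629 windows that held a RUNX1 summit of each library, above its share of all windows, while TGTGGT was in 11.1% of them and in 13.1% of all windows. Either motif was in 24.6% and 19.6%. The motif lay inside the bound region at 3 genes, and the windows are printed to show how far it was from the summits. They read 5′ to 3′ on the gene's strand, with the motif in capitals (ACCGCA and ACCACA are TGCGGT and TGTGGT on the opposite strand).
OIP5-AS1, chr15:41283740-41284039, plus strand: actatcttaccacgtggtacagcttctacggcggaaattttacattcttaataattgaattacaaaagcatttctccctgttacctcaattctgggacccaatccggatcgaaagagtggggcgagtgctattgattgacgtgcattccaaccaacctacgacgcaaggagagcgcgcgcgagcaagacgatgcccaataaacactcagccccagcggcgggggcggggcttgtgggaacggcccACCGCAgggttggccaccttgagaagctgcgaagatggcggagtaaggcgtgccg
SNX10-AS1, chr7:26376220-26376519, minus strand: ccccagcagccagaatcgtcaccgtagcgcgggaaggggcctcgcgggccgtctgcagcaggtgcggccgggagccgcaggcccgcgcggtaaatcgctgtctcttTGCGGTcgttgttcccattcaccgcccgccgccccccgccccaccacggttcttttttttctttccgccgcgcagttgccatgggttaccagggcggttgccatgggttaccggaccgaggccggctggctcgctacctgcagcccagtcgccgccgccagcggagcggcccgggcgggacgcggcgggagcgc
LOC105369519, chr11:118691883-118692182, plus strand: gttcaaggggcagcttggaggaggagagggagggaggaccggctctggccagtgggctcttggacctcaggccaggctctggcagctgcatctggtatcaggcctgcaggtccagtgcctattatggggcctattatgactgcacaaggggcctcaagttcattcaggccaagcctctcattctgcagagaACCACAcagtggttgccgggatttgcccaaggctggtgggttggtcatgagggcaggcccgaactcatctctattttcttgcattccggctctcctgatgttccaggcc
At OIP5-AS1, a lncRNA gene 2.26 kb from the coding gene CHP1 by the region's midpoint, the summits of libraries 1 and 2 lay at window positions 254 and 253, counted from the 5′ end. These were 3 and 2 bp from the motif, which starts at position 246. The fold over IgG was 19.0 and 16.6 and the pileup, the reads or fragments stacked at the summit, was 214 and 179. At SNX10-AS1, antisense to the sorting nexin gene SNX10, both summits lay at position 75, 32 bp from the motif at position 107, with a fold of 6.77 and 6.05. At LOC105369519, 12.9 kb from the trehalase gene TREH, the fold was 14.0 and 13.9 and both summits lay 603 bp from the motif. The motif was thus within 3 bp of the summits only in the OIP5-AS1 window.

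A member on chromosome 22 covered the whole hairpin of the microRNA gene MIR650, which lies in the immunoglobulin lambda locus (hairpin chr22:22822776-22822871, plus strand). The mature sequence from RefSeq is shown with its seed, bases 2 to 8, in capitals.
hsa-miR-650: aGGAGGCAgcgcucucaggac
The region had a fold of 7.22 and 5.99, the summit of library 1 lay inside the hairpin and that of library 2 lay 29 bp outside it. Members overlapped 7 microRNA genes in all, through 6 regions, a count without a matching one over all RUNX1 regions.

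Signal at the members was moderate and nearly equal in both RUNX1 libraries. The fold over IgG, the authors' own value for each peak, had a median of 7.39 in library 1 (range 2.06 to 240.3) and 7.52 in library 2 (2.23 to 234.2). The median pileup was 63 (14 to 1694) and 60 (15 to 1625), over a median IgG expectation of 7.60 and 7.21. Fold in library 2 divided by that in library 1 had a median of 1.01, and 97.0% of the members lay within 1.5 times. Across members the folds of both libraries had a Spearman correlation of 0.946, and their summits lay a median of 9 bp apart. A mean fold of at least 10 was reached by 1261 members (32.1%), at least 20 by 371 (9.44%), at least 50 by 36 and at least 100 by 7. Members were a median of 700 bp wide (293 to 6559 bp), and 97.8% were made of 1 peak in each library.

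**Figure D1:**
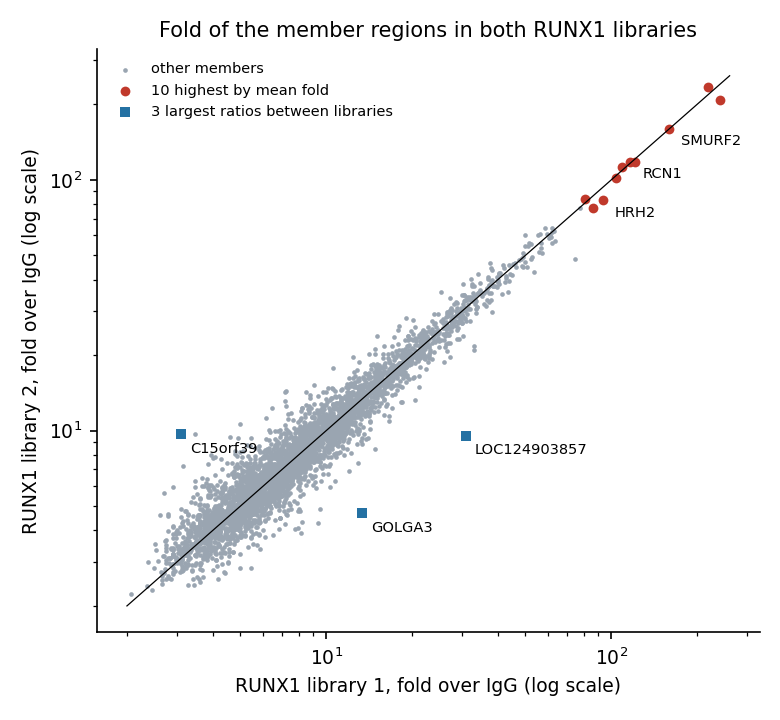
Fold over IgG of the 3931 member regions in RUNX1 library 1 (x axis) and library 2 (y axis), both on a log scale, with the line of equal values. Points follow the line from 2.06 to 240.3-fold, and the 3 regions with the largest ratio between libraries (squares) stand off it.

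The regions that agreed least between the libraries had a similar pileup and differed in the IgG expectation, each taken at the summit of that library's strongest peak. Next to LOC124903857 (chr1:16676690-16678220) the fold was 31.0 and 9.56, with a pileup of 92 and 90 and an expectation of 2.00 and 8.52. Next to the Golgi coiled-coil gene GOLGA3 (chr12:132764970-132766869) the fold was 13.4 and 4.68, with a pileup of 62 and 65 and an expectation of 3.70 and 13.1. Next to C15orf39 (chr15:75177633-75179526) it was 3.10 and 9.65, with a pileup of 62 and 53 and an expectation of 19.3 and 4.59. In all 3 regions the library with the higher fold was the library with the lower expectation. Next to LOC124903857 and C15orf39 the summits of the libraries lay over 1 kb apart, while the median over members was 9 bp. The values of these regions therefore do not describe a shared position, and the control at a shared position was not compared.

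Members resembled RUNX1 regions without ETS1 elsewhere and differed from ETS1-bound regions at the same location. The per-library median fold was 7.45 ± 0.0900 (SD, n = 2 libraries) in members and 7.30 ± 0.0805 in the 7287 regions inside genes without ETS1. It was 8.02 ± 0.210 in the 777 regions over 100 kb from a gene, and 6.27 ± 0.169 in the 4408 within 1 kb of a gene end. At the last of these the median pileup was higher than in members (77 and 71) and so was the IgG expectation (11.0 and 10.5). The 670 regions at the members' own location that did overlap ETS1 stood well above all of these. Their fold had a median of 19.8 and 19.5, their pileup one of 194.5 and 183.5, and their width one of 1407 bp. The gap to the members exceeded the spread between libraries, and it is given without a test because the peak calls of both antibodies defined the classes.

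The share of regions without ETS1 fell with RUNX1 signal. When the 4601 regions at this location were put in 10 equal groups by mean pileup, 97.6% (95.8% to 98.7%) of the weakest group, with a pileup of 14.5 to 33.5, had no ETS1 peak. The share was 91.96% in the sixth group (68 to 82), 80.7% in the eighth (103.5 to 143) and 66.7% in the ninth (143 to 243). In the strongest group, with a pileup of 243 to 5911.5, it was 42.8% (38.4% to 47.4%). That strongest group held 197 members, and the highest mean pileup of any member was 1659.5. Of all members, 312 (7.94%) lay above the median pileup of the ETS1-bound regions at this location, and 0 above their highest. The ETS1 libraries had fewer peaks and a lower median pileup (54 and 51) than the RUNX1 libraries (75 and 71); the part of this in the missing ETS1 peaks was not tested. For 1342 members (34.1%) the nearest ETS1 peak was over 100 kb away, and for 84 (2.14%) it was within 1 kb.

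**Figure D2:**
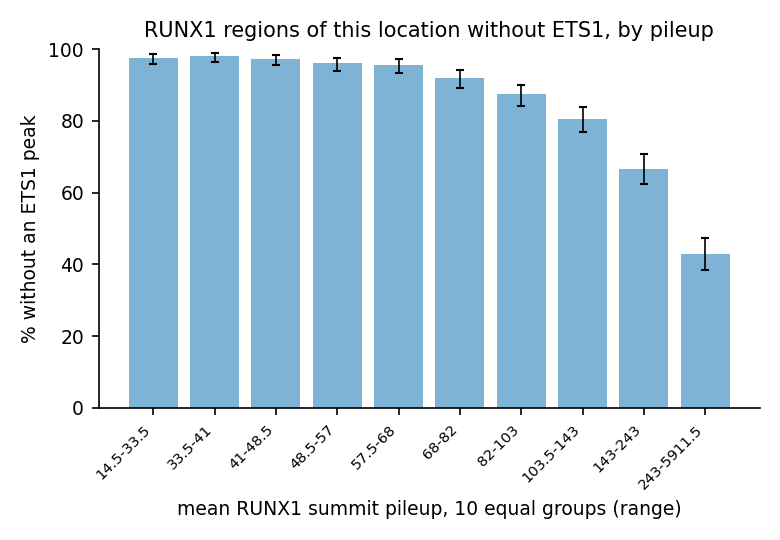
Percentage of RUNX1 regions between genes and near them that overlapped no ETS1 peak (y axis, from 0), in 10 equal groups by mean RUNX1 summit pileup (x axis); error bars are 95% Wilson intervals for counting error. The share goes from 97.6% in the weakest group to 42.8% in the strongest.

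Members were packed towards genes. Of the genome, 755 Mb (24.9%) could hold a member's midpoint, and over this eligible sequence there were 5.203 members per Mb. Density was 10.04 per Mb at 1 to 5 kb from the nearest gene end, 7.26 at 5 to 10 kb, 5.72 at 10 to 25 kb, 4.19 at 25 to 50 kb and 2.59 at 50 to 100 kb. ETS1-bound regions of the same location dropped more steeply, from 2.174 to 0.356 per Mb. The median distance of a member was 14202 bp, and the middle 50% lay between 5256.5 and 33586.5 bp. Signal ran the other way by a small amount: over the same 5 distances the median fold of members was 7.02, 7.22, 7.58, 7.697 and 7.96, and the median pileup 56, 58.5, 62, 64.5 and 67.5.

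**Figure D3:**
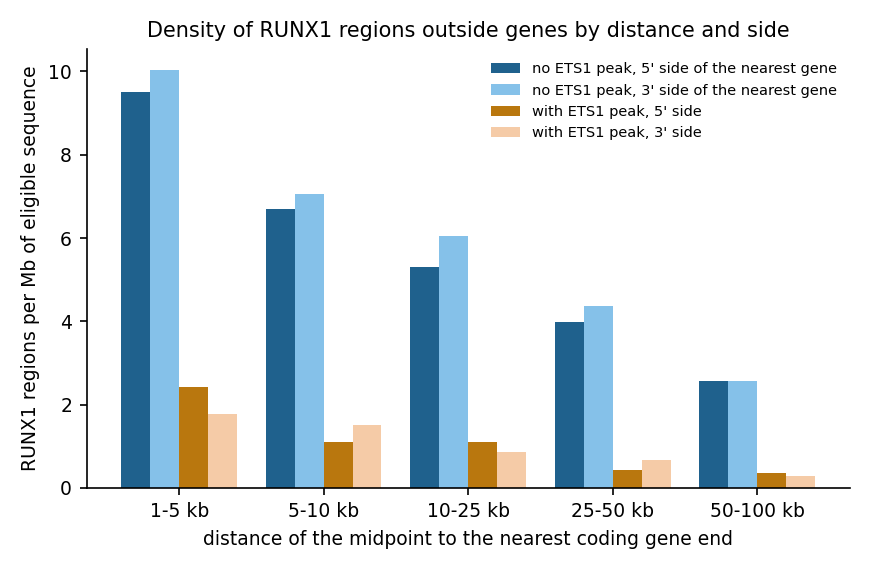
RUNX1 regions per Mb of eligible sequence (y axis) by distance of the midpoint to the nearest coding gene end (x axis), for members (blue) and regions with an ETS1 peak (orange), split by the 5′ (dark) and 3′ (light) side of the gene. Member density falls with distance on both sides, from 9.50 and 10.03 at 1 to 5 kb to 2.57 on either side at 50 to 100 kb.

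Members were not gathered upstream of genes. The strand of the nearest gene was known for 3050 members, and 1580 of them (51.8%, 50.03% to 53.6%) lay on its 5′ side. Per Mb of eligible sequence there were 4.88 members on the 5′ side and 5.34 on the 3′ side. ETS1-bound regions had 0.886 and 0.857 per Mb.

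Genes with RUNX1 at an end had more members around them. The nearest gene of 2358 members (59.98%) had a RUNX1 region within 1 kb of an end, and member density was 9.31 per Mb next to such genes and 3.13 per Mb next to other genes. Next to genes with both RUNX1 and ETS1 at an end it was 12.5 per Mb. ETS1-bound regions of the same location had 3.32 per Mb at these genes and 0.887 over all eligible sequence. Of the RUNX1 regions there, 79.0% had no ETS1 peak, while 85.4% did so overall. Gene ends were scored for RUNX1 without the members, so an ETS1-bound region that reached an end could place its own gene in this group. A member could not, so the rises of members and of ETS1-bound regions are not compared. Of all 19821 coding genes, 12.8% were nearest to a member, 46.9% had RUNX1 at an end and 19.0% had ETS1 at an end. Members also lay close to other RUNX1 regions, with 57.4% within 10 kb of the next and 51.9% of all other RUNX1 regions. Regions share libraries and neighbours, and gene-dense sequence holds more of each kind, so these counts carry no test.

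By chromosome, members were densest on 22 (17.6 per Mb of eligible sequence), 19 (13.1), 17 (12.7) and 20 (11.3). They were sparsest on X (1.59), 18 (2.29) and 4 (2.44). Median fold did not follow this order, with 7.54 on 22 and 7.61 on X. Within 5 Mb of a chromosome's outermost gene or peak lay 939 members (23.9%). The same share of all RUNX1 regions or of the eligible sequence was not counted, so this number does not show a gathering there.

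The strongest members by fold were a pair beside the end of the short arm of chromosome 7. The region chr7:103926-104551 had a fold of 218 and 234 and its neighbour chr7:101964-103548, 378 bp away, had 240.3 and 208.4. Their nearest coding gene, LOC105375116, is 68.9 and 70.4 kb away. The pileup was 683 and 709, and 672 and 617, over an IgG expectation of about 2 in each library (1.80 to 2.14). By mean pileup they ranked 16 and 20 among members, so the fold rests on a high pileup and a low control. The nearest ETS1 peak was over 255 kb off.

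The member with the highest pileup lay 50.8 kb 5′ of SMURF2, a ubiquitin ligase that restrains TGF-beta signalling (chr17:64711692-64714579). Its pileup was 1694 and 1625 and its fold 159 and 160, over an expectation of 9.65 and 9.17. It was strong on either measure, with the nearest ETS1 peak 93.8 kb away. The widest member, 6559 bp at chr6:169803205-169809763, lay 24.9 kb 3′ of ERMARD and had a fold of 109 and 112 and a pileup of 1231 and 1216. A region 37.9 kb 5′ of SALL3, a zinc-finger factor of the spalt family (chr18:78940836-78943019), had a fold of 122 and 118 and a pileup of 791 and 736. These 3 were the members in the top 10 both by fold and by pileup.

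The rest of the top 10 by fold had a lower pileup. A region 57.2 kb 3′ of RCN1, a calcium-binding protein of the endoplasmic reticulum, had a fold of 116 and 118 and a pileup of 436 and 427. A region 19.1 kb 5′ of CLEC2D, which encodes the ligand of the natural killer receptor CD161, had a fold of 104 and 101. Its pileup was 286 and 270. Its IgG expectation (1.76 and 1.67) was at a floor that members share, with 73 of them within 0.01 of the lowest of library 1. An ETS1 peak lay 1.74 kb from the CLEC2D region without touching it. Regions next to HRH2, the histamine H2 receptor (93.2 and 82.9), ADGRA1, an adhesion receptor (81.0 and 83.7), and GATD3 (86.5 and 77.5) completed the 10. The median expectation over the top 10 by fold was 2.45 and 2.62, while over all members it was 7.60 and 7.21.

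Ranking by pileup named other genes, with a median expectation of 15.5 and 14.7. A region 12.6 kb 5′ of NKAP, a co-repressor needed for T-cell development (chrX:119955718-119956972), had a pileup of 1059 and 1069 and a fold of 52.2 and 55.3. A region 41.3 kb from ZMIZ1, a co-activator of NOTCH1 in T-ALL (chr10:79026939-79028364), had a pileup of 822 and 821 and a fold of 43.8 and 45.9. Regions next to CFDP1 (1222 and 1187), TPRA1 (893 and 825), TMEM209 (785 and 780), MBOAT1 (725 and 749) and PPP4R2, a regulatory subunit of protein phosphatase 4 (733 and 728), made up the 10 by pileup. Every region named from either ranking had folds within 1.2 times of each other in the libraries.

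Some genes had many members. Of the 2534 genes nearest to any, 1782 had 1, 436 had 2, 157 had 3 and 159 had 4 or more. BAHCC1, a reader of the repressive histone mark H3K27me3, had 12, with mean folds of 4.54 to 10.7 at 2.92 to 45.8 kb, on both sides of the gene. BRD1, a scaffold of histone acetyltransferase complexes, had 10 (3.90 to 26.2). SPSB1, a substrate adaptor of a ubiquitin ligase, also had 10 (4.68 to 38.6), the strongest of them 43.3 kb from the gene at 39.6 and 37.5-fold. BHLHE23, a basic helix-loop-helix factor, had 9 weaker ones (2.70 to 13.2). BAHCC1, BRD1, SPSB1 and BHLHE23 all had RUNX1 at an end, and BAHCC1 also ETS1. The order by count is not that by density. Per Mb of eligible sequence BAHCC1 had 206 members, SPSB1 111, BRD1 99.3 and BHLHE23 97.3. CXXC5 and SLC7A5, with 8 members each and named after their values were seen, had 230 and 222. At SPSB1 the strongest member stood apart, with the next at a mean fold of 10.9. Among genes with 7 or 8 members, named here after their values were seen, were the immediate-early factor FOS (8, up to 27.0), the co-repressor CBFA2T3 (7, up to 20.7), the RNA-binding protein ZFP36L2 (7, up to 24.3) and IRF2BPL (7, up to 50.9).

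Among 37 transcription factors of T-ALL and the T lineage, 18 (48.6%, where it was 12.8% of all coding genes) were nearest to a member, through 40 regions. These genes have much sequence around them (a median of 91.4 kb of eligible sequence per gene and 17.0 kb over all coding genes), and per Mb the density was 12.5, while it was 5.203 over all. The highest folds in the list were next to TCF12, the E protein HEB, which pairs with other helix-loop-helix factors in thymocytes: 35.2 and 34.6 at 41.1 kb on the 3′ side (chr15:57331213-57333633). RUNX3, the RUNX family member of cytotoxic T cells, had 9 members, all on the 5′ side at 4.79 to 72.7 kb. Its strongest were chr1:24997184-24999171 at 32.5 and 33.0-fold and chr1:25033388-25035405 at 28.1 and 32.0-fold, and its other 7 lay between 4.06 and 6.36 in mean fold. TOX, a nuclear factor required for CD4 T cells, had 1 member at 68.9 kb with 23.9 and 29.2-fold, at the lowest IgG expectation of both libraries. MEF2C, expressed in immature T-ALL, had its strongest at 56.1 kb with 23.8 and 22.7-fold.

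Other factors of the list are named here after their values were seen. The RUNX1 gene itself had 1 member, 2.22 kb on its 5′ side, at 16.3 and 15.6-fold. The ETS1 gene had 3. The helix-loop-helix inhibitor ID3 and the homeobox factor HHEX had 4 each, GATA3 had 2, and BCL11B, SATB1 and MYCN had 1 each. The 40 regions had a median mean fold of 8.06, and all members 7.44.

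**Figure D4:**
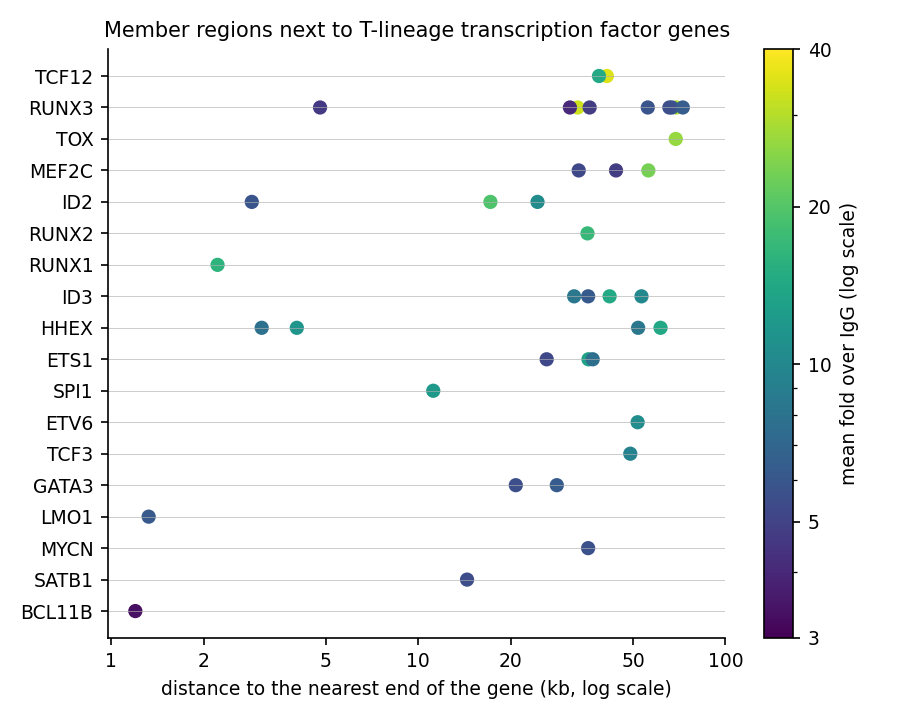
Member regions next to the 18 T-ALL and T-lineage transcription factor genes that had any (rows), by distance to the nearest end of the gene in kb (x axis, log scale) and coloured by mean fold over IgG (log scale). Most lie between 20 and 80 kb from the gene, and the highest folds are next to TCF12 and RUNX3.

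Of 31 genes of T-cell receptor signalling, 11 (35.5%) were nearest to a member (15 regions, 12.8 per Mb), while 24 had RUNX1 at an end. The 15 regions had a median mean fold of 6.15. Among them, VAV1, an exchange factor, had 9.21 and 10.4-fold, and RASGRP1, an activator of Ras, had 8.33 and 7.76. CD3E, a subunit of the receptor complex, had a member 3.11 kb away at 5.40 and 7.45-fold. Of 19 T-cell surface and costimulatory receptors, 8 (42.1%) had 12 regions (12.3 per Mb). The strongest were next to CD44, an adhesion receptor (17.4 and 19.5), CD6 (15.9 and 15.1), CD5 (13.6 and 12.7) and CD27 (13.1 and 12.5). Of 11 genes of SLAM receptors and their SAP adaptors, 2 (18.2%) had a member, 1 each, which is 8.34 per Mb: SLAMF6 (6.64 and 7.16) and SLAMF8 (3.15 and 7.22).

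The NOTCH list had the highest density, 20.7 per Mb, from 19 regions next to 8 of 18 genes (44.4%), but their median mean fold was low, 5.27. The ligand DLL4 had the strongest, 2.30 kb on its 5′ side, at 24.8 and 22.7-fold. FBXW7, which marks intracellular NOTCH for degradation, had 18.2 and 17.2 at 61.8 kb. The target HES4 had 14.2 and 16.4, and the target HES1 10.9 and 11.2 at 4.65 kb. HES1 and NOTCH1 each had 5 members. Genes of homing and egress came next in density with 19.6 per Mb (8 of 18 genes, 44.4%, 16 regions), and their folds were higher, with a median of 9.16. CCR7, the lymph node homing receptor, had 16.5 and 16.4, the integrin chain ITGB1 15.5 and 15.9, KLF2, a regulator of T-cell egress, 14.2 and 11.5, and CXCR5 12.1 and 12.9.

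The counts of genes that follow stand beside the 12.8% of all coding genes nearest to a member and the overall density of 5.203 per Mb. Cytokine receptor, JAK and STAT genes had 11 regions next to 7 of 25 genes (28%, 15.2 per Mb). The interleukin-2 receptor chain IL2RA had 14.9 and 14.6 at 6.36 kb on its 5′ side, and the feedback inhibitor SOCS3 had 13.8 and 13.6. Survival genes had 8 regions next to 6 of 22 genes (27.3%, 9.27 per Mb), with a median of 13.2. The pro-apoptotic BAK1 had the strongest list region of all, 48.4 and 45.2 at 39.2 kb on its 3′ side (chr6:33532543-33534210), with FASLG, the ligand of the death receptor FAS, at 25.9 and 18.8 and BIK at 22.5 and 21.8. Cell cycle genes had 7 regions next to 5 of 21 (23.8%, 9.09 per Mb), led by cyclin CCND1 (28.7 and 29.4 at 82.2 kb) and E2F1 (19.1 and 18.0). Thymocyte stage genes had 7 regions next to 4 of 17 (23.5%, 9.16 per Mb), led by CD34, the progenitor antigen, at 38.2 and 43.8-fold. Cytotoxic and natural killer genes had 7 regions next to 6 of 17 (35.3%, 7.53 per Mb), led by NKG7, a cytotoxic granule protein, at 42.0 and 44.6, then GZMK (16.7 and 18.8) and PRF1, perforin (12.4 and 12.7).

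T-cell markers had 2 regions, next to CD3E and CD5 (2 of 7 genes, 28.6%, 9.49 per Mb). Marker genes of other lineages also had members, and the blood lists among them had a higher density. B-lineage markers had 8 regions next to 4 of 10 genes (40%, 16.5 per Mb), of which 5 were next to VPREB1, the surrogate light chain gene inside the immunoglobulin lambda locus (strongest 20.8 and 21.9). Myeloid markers had 3 regions next to CEBPE and CEBPA (2 of 11 genes, 18.2%, 10.2 per Mb). Among erythroid and megakaryocytic markers only the transferrin receptor TFRC, used by all dividing cells, had any, with 4 regions (1 of 10 genes, 10%, 11.2 per Mb). Among 12 non-blood markers only the keratin gene KRT5 had any, 1 region at 2.51 and 3.53-fold (8.33% of genes, 1.79 per Mb). All 15 other lists, of the T lineage or not, thus lay above the density over all genes, and the non-blood list lay below it. By share of genes the erythroid and megakaryocytic list (10%) also lay below the 12.8% of all coding genes. The densities of the SLAM and T-cell marker lists rest on 2 regions each, that of the myeloid list on 3 and that of the non-blood list on 1. Such small counts cannot separate these lists.

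**Figure D5:**
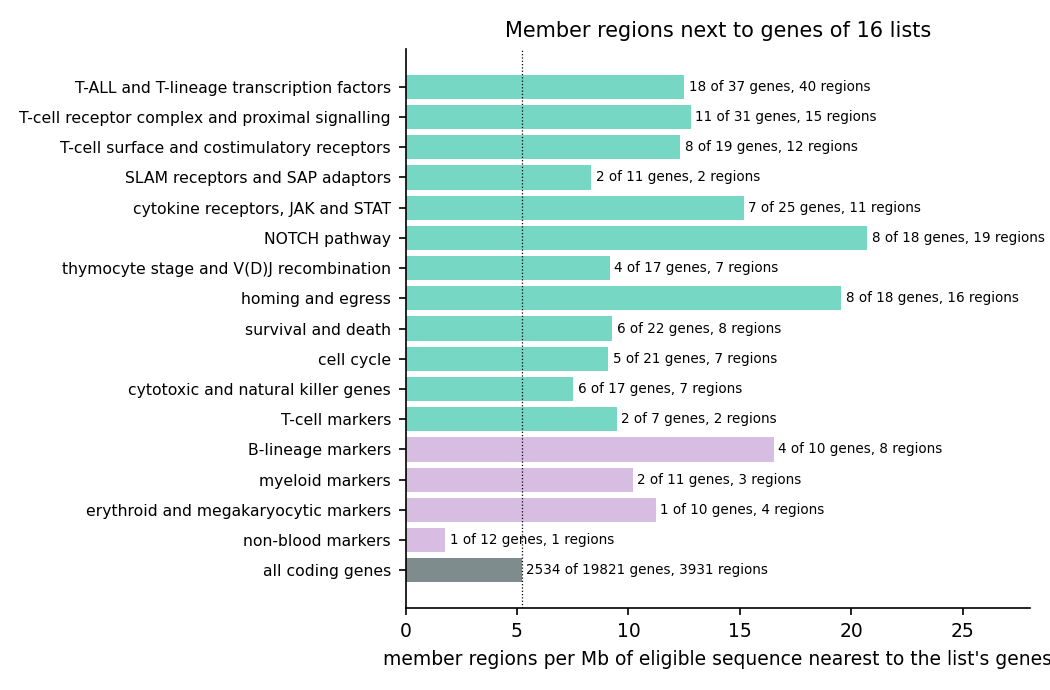
Member regions per Mb of eligible sequence nearest to the genes of 16 lists (x axis, from 0), with the number of genes nearest to a member and of regions beside each bar; the dotted line is the density over all coding genes, 5.203. NOTCH genes are highest at 20.7 and non-blood markers lowest at 1.79.

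Antigen receptor loci differed in how many members they held. The T-cell receptor beta locus held 12 RUNX1 regions, of which 3 overlapped ETS1 and 8 were members with mean folds of 3.69 to 14.2. The gamma locus held 2 members (6.48 and 7.30) and no RUNX1 region with an ETS1 peak, and the alpha locus 1 member (6.88) among 3 RUNX1 regions. The immunoglobulin lambda locus held 10 members among 21 RUNX1 regions, up to 21.3-fold. The heavy chain locus held 94 RUNX1 regions, 28 of them with ETS1, and 0 members under the distance rule. The delta and kappa loci held no RUNX1 region.

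Across all peaks, and without the ETS1 rule, the share of summits in the space between and near genes was higher for RUNX1. It was 20.67% and 20.68% in the RUNX1 libraries and 11.4% and 11.0% in the ETS1 libraries, while 24.9% of the sequence was eligible. The difference was 9.46 percentage points (20.7% ± 0.00627 and 11.2% ± 0.333, SD, n = 2 libraries each; two-sided exact permutation test over all 4 libraries, p = 0.333). That is the smallest p which 2 libraries against 2 allow, and the groups did not overlap. RUNX1 summits in that space were also farther from genes, at a median of 13.3 and 13.6 kb, than ETS1 summits, at 10.3 and 10.1 kb.

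The distance limits cut through continuous values. Just inside 1 kb lay regions next to TOP1MT (1005 bp, 7.77 and 7.33-fold), CUEDC1 (1006 bp, 30.7 and 30.8) and NRTN (1008 bp, 5.15 and 4.50). Just outside lay regions next to LOC124903671 (996 bp, 32.4 and 34.5), TPM2 (994 bp, 7.91 and 7.43) and LOC124903405 (983 bp, 6.13 and 5.93). At 100 kb, members next to MAP3K7 (99742 bp, 8.15 and 8.22), VCPKMT (99627 bp, 22.2 and 19.3) and SLC6A6 (98930 bp, 10.4 and 11.7) were the last inside. The next ones outside were near TNRC6C (100146 bp, 6.74 and 7.17), LIPC (100758 bp, 9.05 and 6.90) and MCTP2 (101228 bp, 60.4 and 59.0).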

How the data were processed

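Each library came as a list of narrow peaks. bcl2fastq 2.17, MACS3 3.0.0a6 and Bowtie2 are named with build hg38 in the submitters' processing notes; the call threshold and duplicate handling were not given in the sources used here. Per the labels of the lists, the authors called peaks per library against IgG, and the lowest deposited −log10 q was 5.00 to 5.03. The deposited fold is a ratio over IgG at the summit. The deposited −log10 q served to filter peaks and the deposited −log10 p to solve the pileup; the deposited score, which follows 10 times −log10 q, was not used further.

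Total reads are not in the lists, so absolute depth is unknown. MACS computes fold as (pileup + 1)/(expectation + 1) and p from a Poisson distribution, and each peak was solved for both; 100% of the peaks of all 4 libraries gave a solution, within 0.01 or 5e-05 of the −log10 p. On simulated data for RUNX1 library 1, 100% of 4890 pileups, 1061 of them with fold under 5, were recovered.

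Where a region held several peaks of a library, the strongest gave its fold. Genes were 19821 coding genes of RefSeq GRCh38.p14, after 177 listed by scaffold coordinates were left out; strand came from the RefSeq promoter table. Eligible sequence, where a midpoint could meet the distance rules, includes assembly gaps. All 278 list entries matched a symbol. Wilson intervals (95%) cover counting error only. Members, lists and tests were chosen with earlier results of these data known. Regions named are the 10 highest by fold and by pileup, up to 5 per list, the 5 genes with most members, the 3 largest library ratios and the 3 nearest pairs at each bound; some regions that this rule names are not reported here. Python 3.11.15, pandas 2.3.3, NumPy 2.4.6 and SciPy 1.17.1 were used. Alternatives were stricter peaks, other ETS1 overlap rules, other distance limits, lncRNA gene ends kept, and each library left out.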

Additional observations from a re-analysis of the deposited data

How the results depend on the processing

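With RUNX1 peaks limited to a −log10 q of at least 20, the number of members dropped from 3931 to 2524. It was 3847 to 4336 under the other ETS1 rules, 2998 to 4391 under other distance and lncRNA rules, and 3991 to 4568 with a library left out. The RUNX1 minus ETS1 difference in the share of summits was 9.23 to 9.70 percentage points with a library left out (exact permutation p = 0.667, the smallest possible), 9.46 with the replicate block (exact p = 0.5, the smallest possible) and 6.53 with an equal number of the strongest peaks per library. The replicate numbers were not shown to pair the libraries: over 4694 regions with peaks of all 4, the log2 fold differences between replicates had r = 0.0221 between antibodies. The share of members on the 5′ side was 51.4% to 52.5% in the 12 alternatives. Motif counts around summits outside the windows at transcript starts were not run. ETS1 signal below its peak threshold at the members was not tested.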

Other observations

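Members also overlapped genes of other classes, which the rule did not use. The share of all RUNX1 regions over these classes was not counted, so the numbers below cannot be called high or low. Pseudogenes lay under 230 members (5.85%), whose median fold was 7.59, while it was 7.43 in the other 3701. Transfer RNA genes lay under 15 members, 18 genes in all. The strongest was at the valine tRNA gene TRV-CAC6-1 on chromosome 6 (21.4 and 18.0-fold), in a region whose nearest coding gene is PRSS16, a thymus-specific protease. The glycine tRNA gene TRG-CCC1-2, nearest to CROCC, had 13.4 and 13.8. The lowest mean folds were at the threonine tRNA gene TRT-CGT2-1 (4.998 and 2.84) and at a pair of tRNA genes nearest to FCGR2A (4.002 and 4.05). These genes are short and many have near-identical copies, so these values are uncertain: how reads that fit several copies were handled is not given in the sources used here.

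Ranks by fold and by pileup were far from the same list. Of the 100 members highest by fold and the 100 highest by pileup, 47 were in both. Within fold alone, 91 of the 100 highest in library 1 were among the 100 highest in library 2. In library 1, 73 members (1.86%) had an IgG expectation within 0.01 of the lowest of that library, so their folds differ almost only by pileup.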
